A study of Mus musculus with 12 samples.

Results

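Chemokines and their receptors were followed in mouse dermis, the layer of skin beneath the epidermis, across genotype and day of a wounding experiment. The genes taken were the protein-coding genes whose symbol starts with Ccl, Cxcl, Ccr, Cxcr or Ackr directly before a digit, together with Cx3cl1, Cx3cr1, Xcl1 and Xcr1. This gave 61 genes of the 55401 in the deposited table, 21807 of which are protein-coding. RNA sequencing had been done on 12 samples from C57BL/6 mice aged 6 weeks, with 3 biological replicates in each of 4 groups. The groups were wild type (WT) on day 0, WT on day 7, Cthrc1-/- on day 0 and Cthrc1-/- on day 7, where Cthrc1-/- mice lack Cthrc1, a secreted protein with collagen triple helix repeats. No treatment other than wounding was given in the labels, which do not say where in or around the wound the tissue was cut, how the Cthrc1-/- allele was made or whether the samples were pooled. Nothing beyond the words biological replicates says that samples came from separate animals, so p-values measure the spread between these samples.

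Chemokines are small secreted proteins that bind G protein-coupled receptors on leukocytes and direct their movement. In skin, some are made at rest by keratinocytes, fibroblasts and vessels, and others are induced by injury in resident cells and in the neutrophils and monocytes that arrive. Atypical receptors bind chemokines without G protein signalling and remove or present them.

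Of the 61 genes, 42 had a mean of at least 1 FPKM (fragments per kilobase of transcript, scaled to the library's fragments) over the 12 libraries and entered the tests, which ran over 14313 genes. Among those 42, 38 also passed this level over the 11 libraries other than WT day 7 replicate 1. The other 4 (Cxcl3, Cxcr2 and Cxcr6 among them) did not. Cxcr6 lay at the edge, with a mean of 1.0045 FPKM, and 0.992 without that library. It was highest in Cthrc1-/- day 7 replicate 2. Differences are log2 fold changes with standard errors (SE) from edgeR's quasi-likelihood test, and a gene was called at a Benjamini-Hochberg adjusted p under 0.05. Fold changes compare groups within a gene. FPKM, which is scaled to gene length, is used where levels of different genes are set side by side.

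The Cthrc1 count was at least 1813 in each WT library and at most 15 in each Cthrc1-/- library, and total counts ran from 48329668 to 76938132. A pair of libraries stood apart. WT day 7 replicate 1 had the highest FPKM of the 12 libraries for 27 of the 42 tested chemokine and receptor genes (64.3%), against 14.8% of all genes tested. Cthrc1-/- day 0 replicate 3 had the lowest for 24 of the 42 (57.1%), against 19.8% of all genes, and the highest for none, against 17.1%. The summed FPKM of 6 fibroblast marker genes, dermis-defining ones among them, was 337 in Cthrc1-/- day 0 replicate 3 and between 1296 and 6441 elsewhere. Hair follicle marker genes summed to between 3.68 and 6.76 FPKM in WT day 0 and to between 249 and 13183 in the other groups, highest in Cthrc1-/- day 0 replicate 3. Keratinocyte marker genes summed to between 2226 and 9188 FPKM in all libraries, lowest in WT day 7 replicate 1, so the tissue labelled dermis held keratinocyte RNA in each. In bulk tissue, fewer cells of a type and less RNA per cell cannot be told apart.

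Sequences are shown for Cxcl1, Cxcl2 and Cxcl3, neighbouring genes of the neutrophil-attracting group whose levels all peaked in the same library. RefSeq promoters of the GRCm38.p6 build were matched for 46 of the 61 genes, and the 250 bases before each gene start were searched on both strands. Each line holds 50 bases on the plus strand, and the capitals mark the 10-base element GGGAATTTCC, a form of the kappaB element that NF-kappaB proteins bind.
Cxcl1, chr5:90891154-90891203: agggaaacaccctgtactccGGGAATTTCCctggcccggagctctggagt
Cxcl2, chr5:90903782-90903831: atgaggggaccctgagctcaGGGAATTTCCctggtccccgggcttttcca
Cxcl3, chr5:90786008-90786057: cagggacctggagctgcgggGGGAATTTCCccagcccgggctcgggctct
The element began at position -71 from the gene start in Cxcl1, -97 in Cxcl2 and -73 in Cxcl3. In each it overlapped, on the other strand, a second match to the kappaB consensus shifted by 1 base. The same 10 bases were present in 28 of 27025 genes' windows (0.104%), 4 of them chemokine or receptor genes: these 3 and, on the minus strand, the eosinophil receptor gene Ccr3. The broader kappaB consensus was found in 2225 windows (8.23%) and in 11 of the 46 matched genes, Ackr2, Ccl1, Ccl20, Ccl9, Ccr1, Ccr3, Ccr6, Cxcl1, Cxcl10, Cxcl2 and Cxcl3. The element was read from the Cxcl3 promoter and then searched in all. A match describes the letters in the window and does not show binding.

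The 8 genes called in any comparison lie, in GRCm38 with GENCODE M21 gene bounds, as follows. The ELR CXC pair was Cxcl3 (ENSMUSG00000029379) at chr5:90786103-90789600 on the plus strand and Cxcr2 (ENSMUSG00000026180) at chr1:74153989-74161246 on the plus strand. Of Ccr1 and its ligands, the receptor was Ccr1 (ENSMUSG00000025804) at chr9:123962124-123968692 on the minus strand and the ligand Ccl5 (ENSMUSG00000035042) at chr11:83525778-83530518 on the minus strand. The keratinocyte copies were Ccl27a (ENSMUSG00000073888) at chr4:41769467-41774247 on the minus strand and Ccl27b (ENSMUSG00000096826) at chr4:42655251-42656005 on the plus strand. The other receptors were Ackr4 (ENSMUSG00000079355) at chr9:104084157-104126933 on the minus strand and Ccr4 (ENSMUSG00000047898) at chr9:114490316-114504916 on the minus strand.

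On the FPKM scale, 3 genes averaged over 100 across the 12 libraries and 21 averaged at least 10. The most abundant were Ccl8, a monocyte attractant (mean 191.9), Cxcl14, a chemokine made by resting epithelium and fibroblasts (186), and Ccl27b, a copy of the keratinocyte chemokine that draws skin-homing T cells (163). Next came Ccl21a, made by lymphatic vessels for dendritic cell exit (80.7), Cxcl2, a neutrophil attractant (79.7), the macrophage chemokine Ccl6 (50.4), Ccl7 (37.7) and Ccl27a (35.9). Without WT day 7 replicate 1 the mean was 13.1 for Cxcl2 and 18.7 for Ccl6. The first 3 did not separate beyond their spread. Ccl8 ranged from 69.6 to 366 FPKM over the libraries, Cxcl14 from 70.3 to 315 and Ccl27b from 14.3 to 336.

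The leading gene changed with the day. Cxcl14 or Ccl27b was the most abundant of the 61 in each of the 6 day 0 libraries, and Ccl8 in 5 of the 6 day 7 libraries. The exception was WT day 7 replicate 1, where Cxcl2 led at 812 FPKM. The 61 genes summed to 3530.0 FPKM in that library and to between 529 and 1245 in the other 11.

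**Figure D1:**
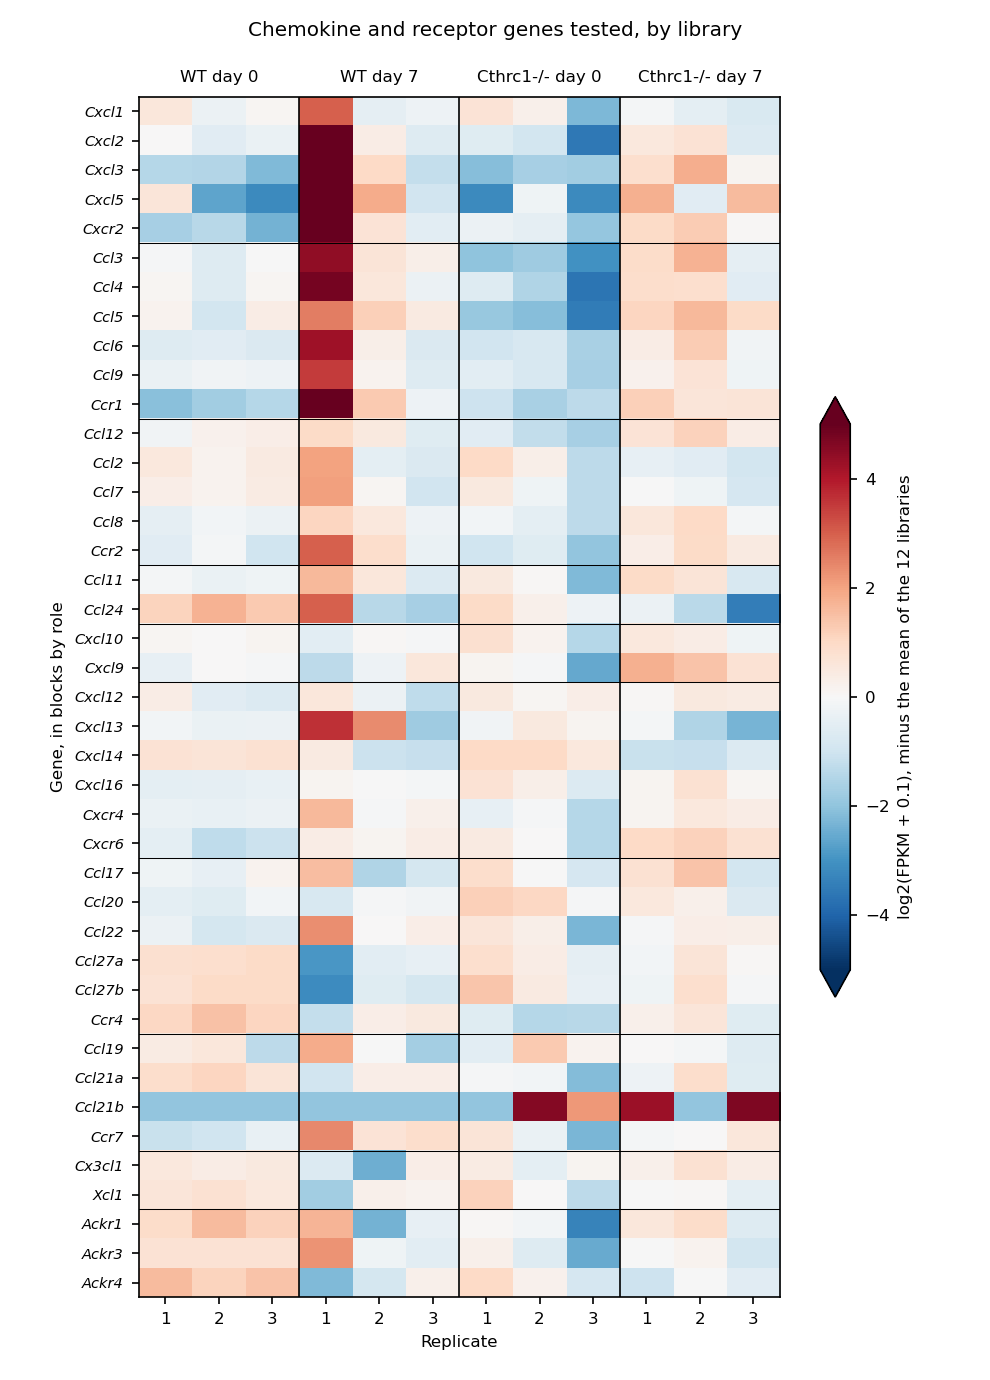
Heat map of the tested genes, 1 left out (rows, in blocks by role) in the 12 libraries (columns, by group and replicate); colour is log2(FPKM + 0.1) minus the gene's mean over the libraries, red high and blue low, saturating at 5. WT day 7 replicate 1 is the reddest column in the upper blocks, and it is highest for 27 of the 42 tested genes, while Cthrc1-/- day 0 replicate 3 is lowest for 24.

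WT dermis on day 7 was compared with WT dermis on day 0, the time course of the wounded wild-type skin. Receptors of neutrophils and monocytes rose (Ccr1, Cxcr2), as did the neutrophil attractant Cxcl3, while the keratinocyte chemokine copies Ccl27a and Ccl27b and the scavenging receptor Ackr4 fell. That made 6 of 42 genes called, 3 higher and 3 lower (14.3%), against 13.1% of all 14313 genes (6.04% higher and 7.1% lower), so the share of calls was near the background. Of the 3 higher calls, Cxcl3 and Cxcr2 were tested only because of WT day 7 replicate 1, with means of 0.346 and 0.915 FPKM over the other 11 libraries, so neither their calls nor the share that counts them is support for a rise across the group. With limma on log2(FPKM + 1), none of the 3 higher calls passed (adjusted p = 0.0865 for Ccr1, 0.133 for Cxcr2 and 0.210 for Cxcl3). The median log2 change of the 42 was 0.52 (0.54 without Ccl21b, which had no count in WT), against -0.00 over all genes. Groups did not overlap for 19 of the 42, 11 higher and 8 lower on day 7, against 44% of all genes (29.8% higher and 14.1% lower).

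The ELR CXC chemokines, named for a glutamate-leucine-arginine motif, attract neutrophils through Cxcr2 and Cxcr1. Cxcl3 was at 0.0736, 0.0677 and 0 FPKM in WT day 0 and at 118, 0.808 and 0.0993 in WT day 7. The groups did not overlap, yet the 3 day 7 libraries spread widely, and replicate 1 stood far above the others. The fitted log2 change was 9.53 (SE 2.501, edgeR adjusted p = 0.0343), and 3.05 (SE 1.18, adjusted p = 0.136) without WT day 7 replicate 1. Cxcr2, their main receptor on neutrophils, was at 0.242, 0.306 and 0.111 FPKM in WT day 0 and at 52.4, 1.64 and 0.654 in WT day 7, all 3 above day 0. It rose by 6.29 (SE 1.62, adjusted p = 0.0326), and the change was 2.23 (SE 0.70, adjusted p = 0.0792) without that library.

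Cxcl2 had the highest mean of the group over the 12 libraries. Without WT day 7 replicate 1, Cxcl1 was higher (mean 16.1 against 13.1 FPKM). Cxcl2 was at 15.9, 10.5 and 12.3 FPKM in WT day 0 and at 812, 20.1 and 9.77 in WT day 7. Its groups overlapped, since replicate 3 lay below day 0, and its change of 4.39 (SE 1.54) had an adjusted p of 0.0812. Cxcl1 (25.7, 14.1 and 18.8, then 139, 12.7 and 14.4 FPKM) and Cxcl5, an epithelial neutrophil attractant (1.28, 0.0469 and 0, then 241, 3.18 and 0.360), had the same shape. In both, replicate 1 of day 7 was the highest of the 12 libraries, the day 7 and day 0 groups overlapped, and neither was called (adjusted p = 0.335 and 0.0885). Cxcr1 was under the tested level and reached 2.43 FPKM in that library alone, with at most 0.0635 elsewhere. Cxcl15 was listed at 0 except for 0.0703 FPKM there.

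As a sum, the 10 neutrophil marker genes were also highest in WT day 7 replicate 1. They summed to 5027 FPKM there, to 740.3 in replicate 2 and to 39.3 in replicate 3, against between 6.32 and 12.3 in WT day 0. The ELR CXC sum did not follow them outside replicate 1. It was 38.5 FPKM in replicate 2 and 25.3 in replicate 3, against between 25.0 and 43.2 in WT day 0. Ly6g, which defines mouse neutrophils, was at 19.6 FPKM in replicate 1, at 0.0523 in replicate 2 and at 0 in replicate 3 and in all WT day 0 libraries. The granule genes Elane and Mpo stayed at or under 0.326 FPKM in every library. Of the 10, 6 were tested and 4 rose in WT, against 6.04% of all genes called higher. The 4 were Csf3r, Mmp8, S100a8 and S100a9, the last 2 also made by wounded keratinocytes. The part of neutrophils in the chemokine changes was not tested.

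**Figure D2:**
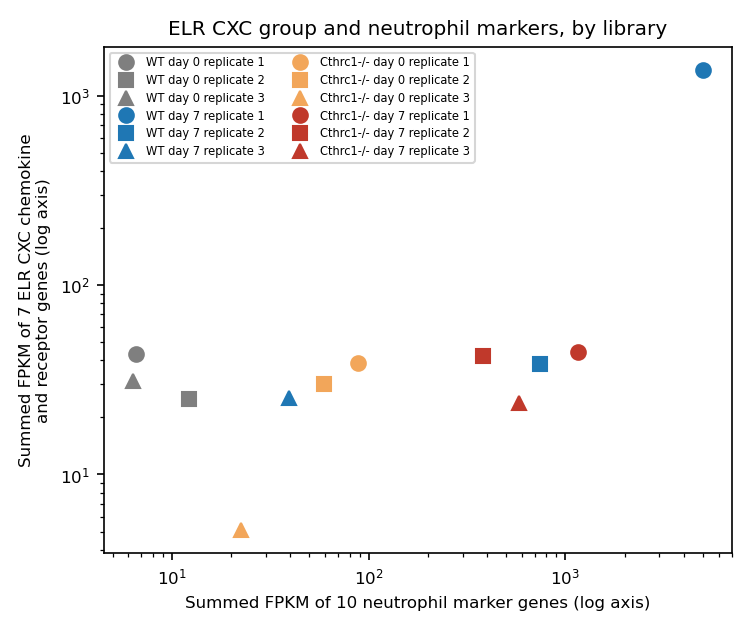
Summed FPKM of the 7 ELR CXC chemokine and receptor genes (vertical, log axis) against that of 10 neutrophil marker genes (horizontal, log axis), 1 point per library, coloured by group with circle, square and triangle for replicates 1, 2 and 3. WT day 7 replicate 1 stands alone at 1366 against 5027 FPKM, and the other 11 libraries lie between 5.07 and 44.2 on the vertical axis.

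Ccr1 and its ligands, which draw monocytes, macrophages and activated T cells, had positive changes for 6 of 6 tested genes in WT, of which Ccr1 was called. Ccr1 was at 0.249, 0.342 and 0.451 FPKM in WT day 0 and at 83.2, 3.61 and 1.15 in WT day 7, and all 3 day 7 libraries lay above all day 0 libraries. It rose by 6.33 (SE 1.45, adjusted p = 0.0219) and, without WT day 7 replicate 1, by 2.64 (SE 0.49, adjusted p = 0.0151), so the call held and the size did not. Ccl3, a macrophage inflammatory protein, was at 9.48, 6.37 and 9.73 FPKM in WT day 0 and at 219.5, 15.7 and 12.1 in WT day 7. Its groups did not overlap, but the change of 3.20 (SE 1.10) had an adjusted p of 0.0771. Ccl4, its close relative, was at 6.76, 3.96 and 6.74, then at 177, 9.47 and 5.18 FPKM. Ccl6 was at 13.2, 14.1 and 12.6 FPKM in WT day 0 and at 399.7, 25.9 and 12.7 in WT day 7, so replicate 3 lay within the day 0 range. Ccl9 (7.41, 8.35 and 7.90, then 108, 10.6 and 6.02 FPKM) was highest in replicate 1 and had replicate 3 below day 0. These genes summed to 999 FPKM in WT day 7 replicate 1 and to between 11.8 and 119 elsewhere, and the 10 monocyte and macrophage markers summed to 1145 there and to between 77.1 and 606 elsewhere, a part that was not tested.

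Among the monocyte attractants no gene was called, although 5 of 5 had positive changes. Ccl8 was at 126, 159 and 142 FPKM in WT day 0 and at 366, 249.9 and 144 in WT day 7, with replicate 3 inside the day 0 range (change 0.68, SE 0.44, adjusted p = 0.311). Ccl7 was at 39.5, 35.5 and 41.7, then at 129, 33 and 16.1 FPKM. Ccl2, the main ligand of Ccr2, was at 31.5, 25.1 and 29.9, then at 88.7, 15.4 and 13.3. In Ccl7 and Ccl2, replicate 1 was above day 0 and replicates 2 and 3 were below it. Ccr2, the receptor of inflammatory monocytes, went from 0.962, 1.39 and 0.689 to 12.4, 2.85 and 1.17 FPKM (change 2.33, SE 0.80, adjusted p = 0.0779). With both libraries that stood apart left out, Ccl2 was called lower on day 7 in WT (log2 change -1.22, SE 0.25, adjusted p = 0.0133).

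The 3 genes called lower in WT were all above 10 FPKM on day 0. Ccl27a was at 52.2, 53.7 and 58.3 FPKM in WT day 0 and at 3.91, 20.7 and 22.8 in WT day 7. Ccl27b was at 213, 250.1 and 251, then at 14.3, 83.9 and 71.0 FPKM. In both, every day 7 library was below every day 0 library, replicate 1 the lowest. Ccl27a fell by 2.03 (SE 0.54, adjusted p = 0.0373) and Ccl27b by 2.31 (SE 0.62, adjusted p = 0.0369). Without WT day 7 replicate 1 they fell by 1.48 (SE 0.36, adjusted p = 0.0386) and 1.77 (SE 0.50, adjusted p = 0.0610). Both share at least 98.0% identity over 150 bases or more with other genes in the table, so the division of reads among copies is uncertain. The 6 copies together summed to 336, 391 and 397 FPKM in WT day 0 and to 24.7, 133 and 118 in WT day 7, again without overlap. Keratinocyte markers summed to 8181, 7420.3 and 7688 FPKM in WT day 0 and to 2226, 5923 and 9188 in WT day 7. Replicates 1 and 2 of day 7 thus lay below the day 0 range and replicate 3 above it. The part of keratinocytes in the lower Ccl27 was not tested.

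Ackr4, which scavenges Ccl19, Ccl21 and Ccl25, was at 16.7, 11.7 and 14.7 FPKM in WT day 0 and at 1.10, 2.88 and 6.45 in WT day 7. The groups did not overlap, and it fell by 2.29 (SE 0.61, adjusted p = 0.0371), or by 1.79 (SE 0.56, adjusted p = 0.0800) without replicate 1 of day 7. Cxcl14 was at 259, 248 and 265 FPKM in WT day 0 and at 215, 74.8 and 71.1 in WT day 7. All 3 day 7 values were lower, with replicate 1 near day 0, and the change of -1.23 (SE 0.43) had an adjusted p of 0.0817. Here the library that stood apart acted the other way: without it Cxcl14 fell by 1.97 (SE 0.21, adjusted p = 0.00589). Ccl21a was at 126, 146 and 109, then at 35.4, 88.0 and 86.7 FPKM, with no overlap and no call (change -1.08, SE 0.57, adjusted p = 0.216). Cx3cl1, a membrane-bound chemokine of vessels and epithelium, and Xcl1, a lymphocyte product that attracts cross-presenting dendritic cells, had lower groups without overlap and were not called (adjusted p = 0.143 and 0.254).

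None of the 6 WT calls stood when any 1 WT day 0 library was left out (adjusted p between 0.0780 and 0.115 over 18 fits) or when only the WT groups were fitted (0 called). Leaving out WT day 7 replicate 2 left 3 calls, and leaving out replicate 3 gave 13.

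**Figure D3:**
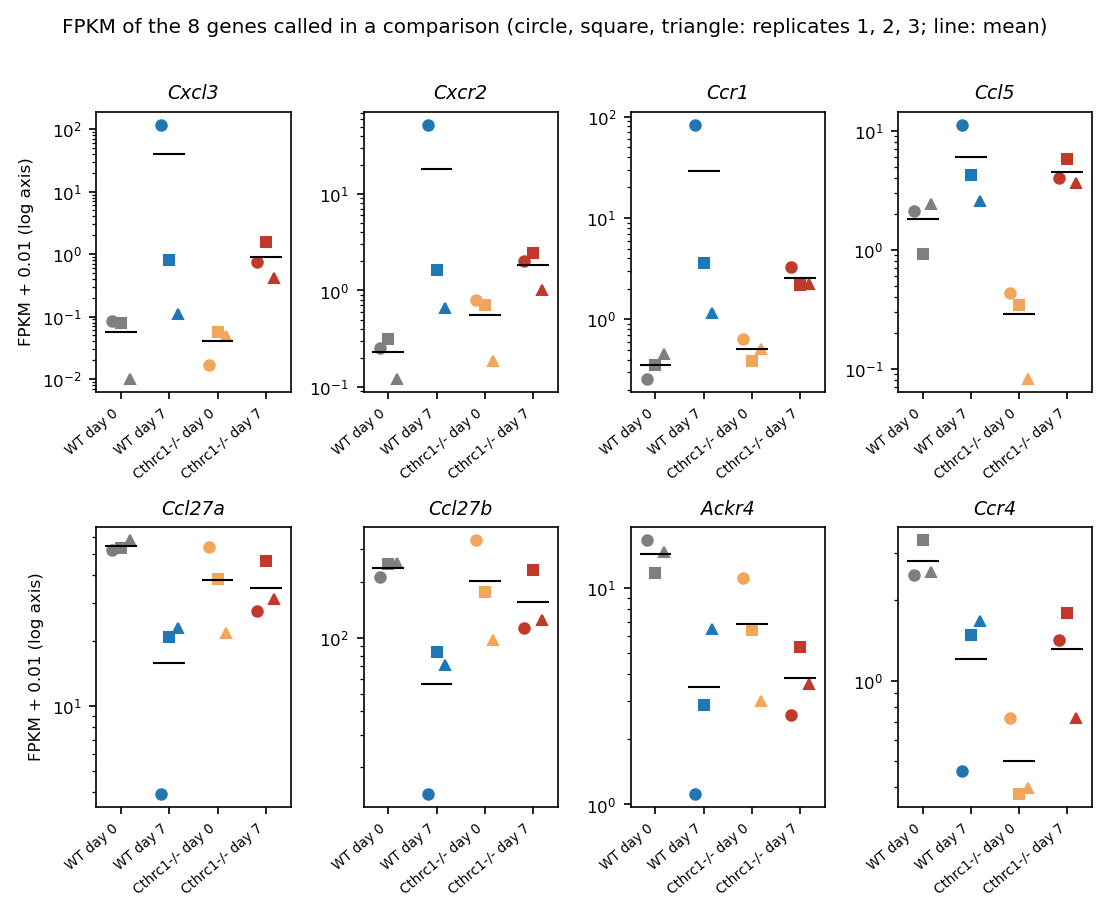
FPKM + 0.01 (log axis) of the 8 genes called in any comparison, in 4 groups of 3 replicates (circle, square and triangle for replicates 1, 2 and 3; line, mean). Cxcl3, Cxcr2 and Ccr1 peak at 118, 52.4 and 83.2 FPKM in WT day 7 replicate 1, and Ccl27a, Ccl27b and Ackr4 are lowest there.

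Cthrc1-/- dermis on day 7 was next compared with Cthrc1-/- dermis on day 0. Ccl5, a ligand of Ccr1 made by T cells and macrophages, was higher on day 7, and it was the 1 gene called of 42 (2.38%), against 1.46% of all genes and 0.859% higher. Ccl5 was at 0.422, 0.336 and 0.0719 FPKM in Cthrc1-/- day 0 and at 4.01, 5.81 and 3.64 in Cthrc1-/- day 7. Every day 7 library lay above every day 0 library, and the change was 3.74 (SE 0.75, adjusted p = 0.0440). Counts behind the day 0 values were 30, 20 and 5. The change kept its sign but missed the threshold when any 1 of the 6 libraries was left out (adjusted p between 0.0510 and 0.141). In WT, Ccl5 went from 2.09, 0.908 and 2.42 to 11.3, 4.29 and 2.55 FPKM (change 1.61, SE 0.68, adjusted p = 0.130).

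All 6 tested genes of the set of Ccr1 and its ligands had day 7 values above day 0 values without overlap in Cthrc1-/-, against 21.5% of all genes higher without overlap. Ccl3 went from 2.41, 2.85 and 1.12 to 18.7, 33.7 and 7.22 FPKM (change 3.04, SE 1.10, adjusted p = 0.181). Ccr1 went from 0.629, 0.379 and 0.501 to 3.29, 2.20 and 2.21 FPKM. Ccl6 was at 10.8, 12.1 and 6.84, then at 27.2, 51.3 and 18.4 FPKM. No single library carried these differences, in contrast with the wide spread in WT day 7. Over all 42 genes, groups did not overlap for 16 higher and 2 lower, 42.9% against 26.5% of all genes (4.99% lower), and the median change was 0.46 against -0.01. The monocyte and macrophage markers summed to between 77.1 and 191 FPKM in Cthrc1-/- day 0 and to between 394 and 408 in Cthrc1-/- day 7, and the neutrophil markers to between 22.5 and 88.2 and between 380.3 and 1156. The part of either in these differences was not tested.

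Of the monocyte attractants in Cthrc1-/-, Ccl8 was at 158, 124 and 69.6 FPKM on day 0 and at 256, 348 and 160.4 on day 7, every day 7 library higher. Ccl7 was at 43.7, 26.9 and 12.4 FPKM on day 0 and at 31.0, 27.2 and 17.2 on day 7, inside the day 0 range. Neither was called.

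In the ELR CXC group of Cthrc1-/- mice, Cxcl3 was at 0.00659, 0.0456 and 0.0396 FPKM on day 0 and at 0.733, 1.53 and 0.402 on day 7, without overlap (change 4.66, SE 2.23, adjusted p = 0.302). The day 0 values rest on 2, 10 and 8 counts. Cxcl2 was at 10.04, 8.02 and 1.21, then at 22.0, 25.4 and 9.44 FPKM, and Cxcr2 at 0.781, 0.689 and 0.178, then at 2.01, 2.45 and 1.01. Cxcr2 did not overlap, while Cxcl2 overlapped by day 7 replicate 3. Cxcl1 was at 27.7, 20.5 and 3.64 FPKM, then at 16.4, 12.4 and 10.4.

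Of the 8 most abundant genes, Cxcl14 had the largest decrease in Cthrc1-/-. It was at 315, 312 and 227 FPKM on day 0 and at 71.5, 70.3 and 97.5 on day 7. The groups lay far apart, and the change of -2.005 (SE 0.44) had an adjusted p of 0.0564. It was called without Cthrc1-/- day 0 replicate 3 (fell by 2.18, adjusted p = 0.0426), with limma (fell by 1.82, adjusted p = 0.0229) and with DESeq2 (fell by 2.01, adjusted p = 0.000205). Ccl24, an eosinophil attractant, was at 2.00, 1.21 and 0.810 FPKM on day 0 and at 0.778, 0.328 and 0 on day 7, without overlap (change -2.02, SE 1.45, adjusted p = 0.507). The Ccl27 copies did not show the WT pattern of separated groups: Ccl27a was at 54.3, 38.5 and 21.8, then at 27.4, 46.6 and 31.1 FPKM, and Ccl27b at 336, 175 and 97.6, then at 112, 230.1 and 124. Their day 7 values in Cthrc1-/- lay inside the day 0 range.

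With both libraries that stood apart left out, an alternative chosen after the data had been seen, 7 genes were called in Cthrc1-/-. Among them Ccl3, Ccl5 and Ccr1 were higher on day 7, and Ccl2, Cxcl1 and Cxcl14 were lower. The same alternative called 11 in WT. Ccr1 (2.56, SE 0.50, adjusted p = 0.0116) and Cxcr2 (2.16, SE 0.54, adjusted p = 0.0285) were among them. So were Ccl27a (fell by 1.54, adjusted p = 0.00525) and Cxcl14 (fell by 2.03, adjusted p = 0.000822). Cxcr2 entered the tests only through WT day 7 replicate 1 (mean 0.915 FPKM over the other 11 libraries). Its call here is therefore no support for a rise. Over all 14313 genes, calls also rose with this alternative, from 209 to 1651 in Cthrc1-/- and from 1880 to 2754 in WT. The rise in calls was therefore not limited to chemokine and receptor genes.

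**Figure D4:**
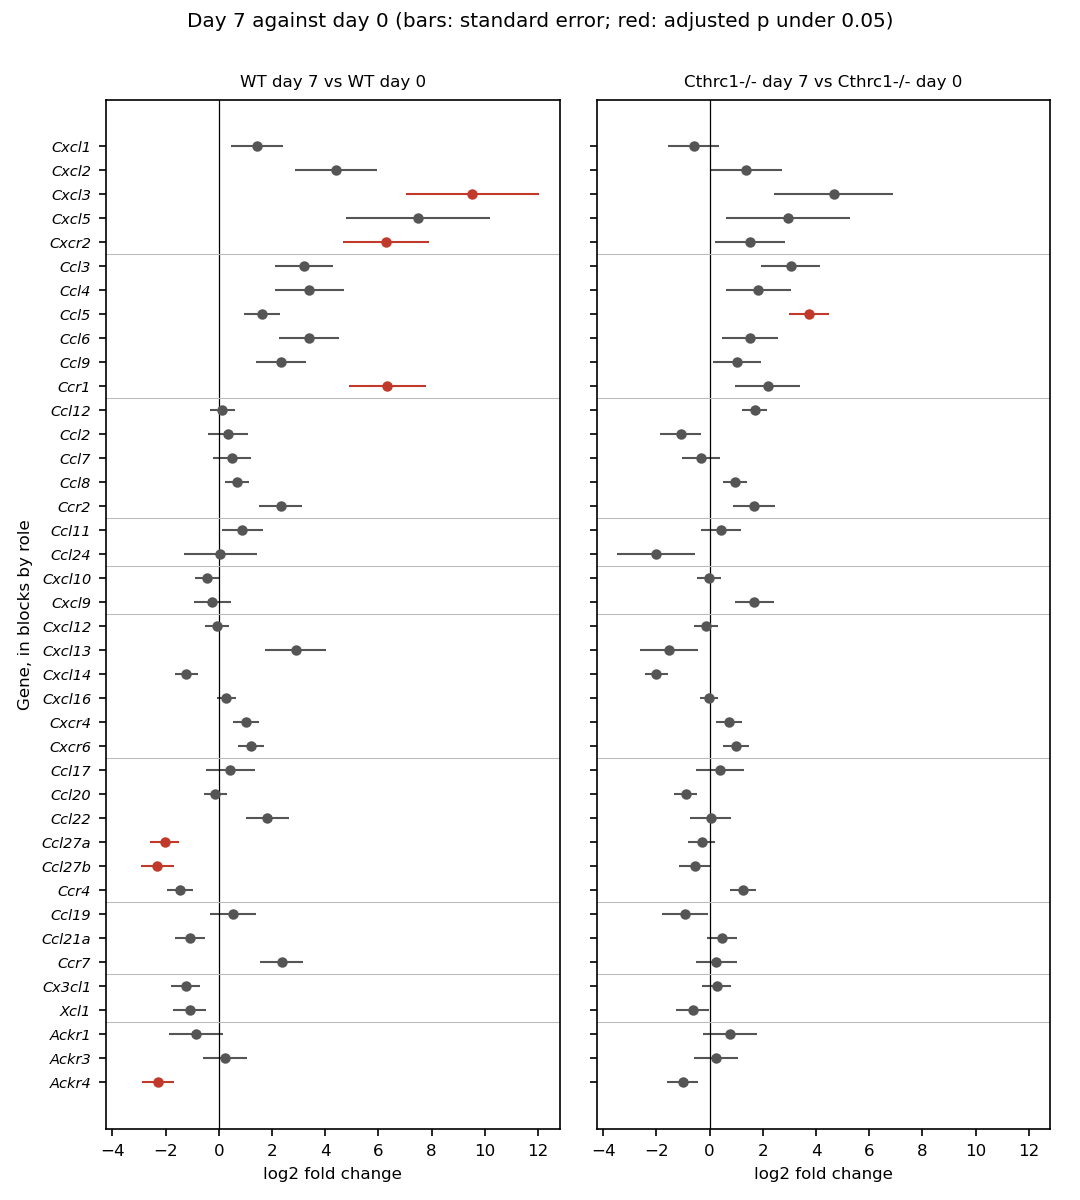
Log2 fold change of day 7 against day 0 in WT (left) and Cthrc1-/- (right) for the tested genes other than Ccl21b and 1 more, in blocks by role; points are edgeR estimates, bars 1 SE, and red marks an adjusted p under 0.05. The block from Ccl3 to Ccr1 lies to the right of 0 in both panels, with 6 of 6 genes among Ccr1 and its ligands positive in each.

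Dermis was compared between genotypes on day 0. Ccr4, the receptor that guides T cells to skin, was lower in Cthrc1-/-, the 1 gene called of 42 (2.38%), against 5.78% of all genes (3.51% higher and 2.26% lower). Ccr4 was at 2.48, 3.36 and 2.56 FPKM in WT day 0 and at 0.716, 0.365 and 0.385 in Cthrc1-/- day 0. The groups did not overlap, and it fell by 2.60 (SE 0.51, adjusted p = 0.0307). It was still lower without Cthrc1-/- day 0 replicate 3 (fell by 2.41, SE 0.59), with an adjusted p of 0.0759. Leaving out each of the other 5 day 0 libraries gave an adjusted p between 0.0143, without Cthrc1-/- day 0 replicate 1, and 0.106, without WT day 0 replicate 2, and only the former kept the call. T cell markers summed to between 6.24 and 6.73 FPKM in WT day 0 and to between 2.13 and 8.75 in Cthrc1-/- day 0, so these groups overlapped.

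Ccl17 and Ccl22, the ligands of Ccr4, were not called. Ccl22 was at 2.52, 1.68 and 1.89 FPKM in WT day 0 and at 4.82, 3.88 and 0.568 in Cthrc1-/- day 0 (change 0.54, SE 0.78, adjusted p = 0.674). Ccl17 was at 0.878, 0.756 and 1.19, then at 2.02, 1.03 and 0.541 FPKM (change 0.26, SE 0.92, adjusted p = 0.877). Both had replicates 1 and 2 of Cthrc1-/- within or above the WT range and replicate 3 below it.

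Groups did not overlap for 13 of the 42 on day 0, 12 lower and 1 higher in Cthrc1-/- (31.0%). Over all genes the share was 41.4% (19.8% lower and 21.5% higher). The median change was -0.40, against -0.05 over all genes. The gene that was higher was Ccl20, a keratinocyte ligand of Ccr6, at 1.25, 1.16 and 1.64 FPKM in WT and at 4.27, 3.74 and 1.70 in Cthrc1-/- (change 1.17, SE 0.43, adjusted p = 0.115). Its lowest Cthrc1-/- value, in replicate 3, was just above the highest WT value. Without both libraries that stood apart it was called (change 1.54, SE 0.36, adjusted p = 0.0452).

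Ccl5 had the next smallest adjusted p after Ccr4. It was at 2.09, 0.908 and 2.42 FPKM in WT day 0 and at 0.422, 0.336 and 0.0719 in Cthrc1-/- day 0 (change -2.70, SE 0.72, adjusted p = 0.0551). Ccl3 was at 9.48, 6.37 and 9.73, against 2.41, 2.85 and 1.12 FPKM (change -2.08, SE 1.07, adjusted p = 0.228). Neither overlapped, and replicate 3 of Cthrc1-/- was the lowest of each. With both libraries that stood apart left out, Ccl5 was called lower (log2 change -2.25, SE 0.50, adjusted p = 0.0412).

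The 3 tested atypical receptors were all lower in Cthrc1-/- day 0 without overlap, against 19.8% of all genes, and none was called. Ackr1, the venule receptor that carries chemokines across endothelium, was at 16.4, 25.9 and 19.5 FPKM in WT and at 8.98, 7.94 and 0.758 in Cthrc1-/- (change -1.86, SE 1.04, adjusted p = 0.264). Part of the Ackr1 transcript is identical to that of Cadm3, so some of its reads are uncertain. Ackr3, which scavenges Cxcl12, was at 25.5, 25.7 and 25.9, against 18.3, 9.81 and 2.58 FPKM, and Ackr4 at 16.7, 11.7 and 14.7, against 11.1, 6.40 and 3.00. Fibroblast markers moved the same way, from between 4814 and 6441 FPKM in WT to between 337 and 2386 in Cthrc1-/-, and endothelial markers from between 42.7 and 43.2 to between 12.5 and 34.6. Their part in these differences was not tested. Cxcl12, the fibroblast ligand of Cxcr4 and Ackr3, was at 13.8, 7.15 and 6.64 FPKM in WT and at 15.1, 11.4 and 13.5 in Cthrc1-/-, with most Cthrc1-/- libraries inside the WT range.

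Dermis was then compared between genotypes on day 7. No chemokine or receptor gene was called by edgeR, against 0.021% of all genes (0.014% higher and 0.00699% lower), and none was under an adjusted p of 0.907. At an unadjusted edgeR p under 0.05 were 10 of the 42, against 782 of all 14313 genes. DESeq2 called 1 of the 42, Cxcl13, against 62 of the 14313. The median change was -0.66, against -0.01 over all genes, and 26 of 42 estimates were negative. Of those, the 5 tested ELR CXC genes ranged from -5.68 to -2.27. Without WT day 7 replicate 1, Cxcl1 was at -0.07 (SE 0.64) and Cxcl2 at 0.31 (SE 0.74). For Cxcl3 the change was -5.68 (SE 2.05) with that library and 0.92 (SE 1.15) without it, for Cxcr2 -3.52 (SE 1.41) and 0.63 (SE 0.70), and for Ccr1 -3.72 (SE 1.27) and 0.07 (SE 0.48). Leaving out that library brought each of these 5 estimates near or above 0.

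Cxcl13, the B cell attractant, was at 12.2, 4.97 and 0.185 FPKM in WT day 7 and at 0.806, 0.242 and 0.0946 in Cthrc1-/- day 7. The groups overlapped, because WT replicate 3 lay within the Cthrc1-/- range (change -4.05, SE 1.20, edgeR adjusted p = 0.907; DESeq2 change -4.06, adjusted p = 0.0267). Without WT day 7 replicate 1 the edgeR change was -2.78 (SE 1.09). B cell markers summed to at most 1.299 FPKM in any library.

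Groups did not overlap for 5 of the 42 on day 7 (11.9%), against 9.13% of all genes (6.46% higher and 2.67% lower), 4 higher and 1 lower in Cthrc1-/-. Cxcl9, an interferon-gamma target that draws Cxcr3-bearing T cells, was at 0.524, 1.19 and 2.13 FPKM in WT and at 5.07, 4.05 and 2.39 in Cthrc1-/- (change 1.55, SE 0.72, adjusted p = 0.911). Ccl27a was at 3.91, 20.7 and 22.8, against 27.4, 46.6 and 31.1 FPKM (change 1.12, SE 0.53, adjusted p = 0.916). Ccl27b was at 14.3, 83.9 and 71.0, against 112, 230.1 and 124 FPKM (change 1.44, SE 0.60, adjusted p = 0.907). These 3 were higher in 3 of 3 Cthrc1-/- libraries than in any WT library. Cxcr6, a receptor of resident T cells, was at 1.14, 0.931 and 1.12, against 1.78, 2.03 and 1.52 FPKM. Its mean over the 12 libraries was 1.0045 FPKM, so it reached the tested level only through its high values in Cthrc1-/- day 7. Neither its separation nor the count that includes it is therefore support for a difference. Ccr7, which leads dendritic cells to lymph nodes, was lower, at 6.63, 1.99 and 2.27, against 1.10, 1.20 and 1.82 FPKM. None was called (adjusted p = 0.968 for Cxcr6 and 0.931 for Ccr7).

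**Figure D5:**
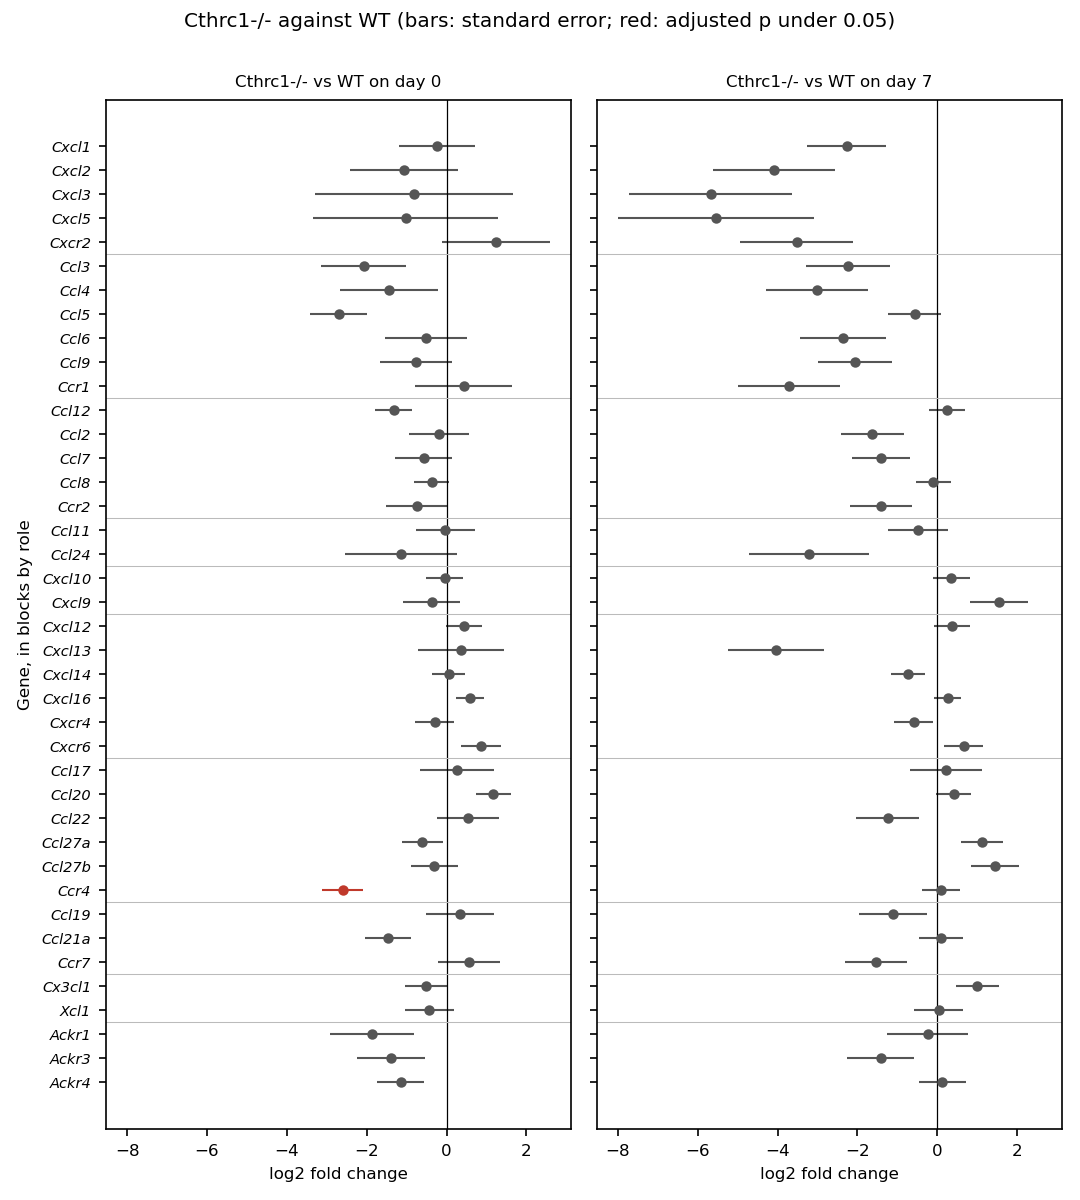
Log2 fold change of Cthrc1-/- against WT on day 0 (left) and day 7 (right) for the tested genes other than Ccl21b and 1 more, in blocks by role; points are edgeR estimates, bars 1 SE, and red marks an adjusted p under 0.05. Ccr4 is the 1 red point, at -2.60 on day 0, and the ELR CXC block lies lowest on day 7, between -5.68 and -2.27.

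The interaction asks whether the day 7 change differed between genotypes. No gene of the 42 was called by edgeR, against 0.014% of all genes (0.00699% in either direction alone). At an unadjusted edgeR p under 0.05 were 7 of the 42, against 2164 of all 14313 genes. DESeq2 called 2 of the 42, Ccr4 and Cxcl13, against 681 of the 14313. Both counts were near the share over all genes. The smallest edgeR adjusted p was that of Ccr4 (0.193). Ccr4 went from 2.48, 3.36 and 2.56 to 0.449, 1.48 and 1.66 FPKM in WT, every library lower (change -1.46, SE 0.49, adjusted p = 0.0722). In Cthrc1-/- it went from 0.716, 0.365 and 0.385 to 1.41, 1.79 and 0.716 FPKM (change 1.24, SE 0.49, adjusted p = 0.215). On day 7 the genotypes overlapped for Ccr4, with a difference of 0.10 (SE 0.48). These comparisons share groups, so their values are not independent of each other.

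The lymphoid chemokines carried an uncertainty of counting. Ccl21a was at 66.8, 63.6 and 15.4 FPKM in Cthrc1-/- day 0 and at 58.5, 126 and 45.7 in Cthrc1-/- day 7. Ccl21b was listed at 0 in all 6 WT libraries and in 2 Cthrc1-/- libraries and at between 76 and 581 counts in the other 4. Transcripts of Ccl21b and 4 other genes, Ccl21a among them, are near-identical in part, so the reads may be divided among them differently from library to library, and no fold change is given. Summed over the 5 copies, Ccl21 was at 242, 267 and 199 FPKM in WT day 0, at 70.5, 173 and 170.2 in WT day 7, at 130.2, 130.2 and 27.7 in Cthrc1-/- day 0 and at 119.8, 246 and 107 in Cthrc1-/- day 7. WT was lower without overlap on day 7, and Cthrc1-/- lay below WT on day 0 without overlap, as for Ccl21a alone. Lymphatic endothelial markers summed to between 23.6 and 27.1 FPKM in WT day 0 and to between 7.03 and 20.4 in Cthrc1-/- day 0, lower as Ccl21 was. In WT day 7 they summed to between 31.4 and 207, above WT day 0 without overlap, while Ccl21 was below it. Their part in these differences was not tested.

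Many of these genes sit in 7 clusters, and neighbours within a cluster did not always peak together. The 4 tested genes of the chromosome 5 cluster from Cxcl5 to Cxcl2 were 10.3 (Cxcl1) to 260.3 (Cxcl3) times higher in WT day 7 replicate 1 than in the mean of replicates 2 and 3. The 5 chromosome 11 genes Ccl5, Ccl9, Ccl6, Ccl3 and Ccl4 were 3.30 to 24.2 times higher, and the 5 tested genes around Ccl2 on the same chromosome 1.86 (Ccl8) to 6.17 (Ccl2) times. Cxcl9 and Cxcl10, the interferon-induced pair farther along chromosome 5, were the reverse, at 0.315 and 0.692 of the mean of replicates 2 and 3. The other 3 clusters ranged widely, from 0.185 (Ccl27b) to 5.78 (Ccl19) on chromosome 4, from 0.853 (Cx3cl1) to 7.83 (Ccl17) on chromosome 8 and from 1.11 (Cxcr6) to 34.9 (Ccr1) on chromosome 9, as multiples of the same mean. Cxcl10 was at 8.03, 7.63 and 8.27 FPKM in WT day 0, at 5.23, 7.87 and 7.24 in WT day 7, at 13.0, 8.57 and 2.76 in Cthrc1-/- day 0 and at 10.998, 9.70 and 6.44 in Cthrc1-/- day 7, and the 4 groups overlapped. The library with the most neutrophil chemokine RNA held the least Cxcl10 and Cxcl9 of WT day 7.

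Other tested genes are given by range. Cxcr4, the Cxcl12 receptor, ran from 3.85 to 33.1 FPKM, and its day 7 libraries were above its day 0 libraries in both genotypes (adjusted p = 0.185 in WT and 0.481 in Cthrc1-/-). Cxcl16, the ligand of Cxcr6, was at 11.7, 12.02 and 12.9 FPKM in WT day 0 and at 18.6, 16.3 and 15.6 in WT day 7, a separation with an adjusted p of 0.600. Ccl12 separated in Cthrc1-/- (4.55, 2.83 and 2.06, then 10.8, 15.3 and 8.80 FPKM; change 1.71, SE 0.47, adjusted p = 0.0954) and not in WT. Ccl11, an eosinophil attractant of fibroblasts, ran from 2.70 to 39.5 FPKM, and Ccl19 from 0.708 to 9.19 with near-identical copies of uncertain division.

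The remaining 19 genes had a mean under 1 FPKM and did not enter the main tests. Of them, 14 lay between 0.1 and 1 FPKM and 5 under 0.1, and Ccl26 had no count in any library. They included most receptors of lymphocytes (Ccr6, Ccr8, Ccr9, Ccr10, Cxcr3, Cxcr5 and Xcr1), the eosinophil receptor Ccr3, the fractalkine receptor Cx3cr1, and Ccr1l1, Cxcr1 and Ackr2. The ligands among them were Ccl1, Ccl25, Ccl26, Ccl28, Cxcl11, Cxcl15 and Cxcl17. They were left out by the level set for testing. In the edgeR fits with a looser level, 14 of them were tested at a mean of at least 0.1 FPKM and 18 with no filter, and none was called in any of the 5 contrasts, with at most 3 at an unadjusted p under 0.05 in a contrast. Ccl1, a ligand of Ccr8, had counts of 23, 25 and 11 in WT day 0 and of 196, 116 and 48 in Cthrc1-/- day 0, without overlap (change 2.57, SE 1.11, adjusted p = 0.193 at the level of 0.1 FPKM). A missed threshold does not show that such genes did not differ.

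Genes that act with chemokines were read from lists. Of 33 intracellular signalling genes, 31 were tested, and 4 rose in WT on day 7 and none fell. Over all genes, 13.1% were called in this comparison, 6.04% higher and 7.1% lower, so the share of calls was near the background. The median change of the list was 0.37, against -0.00 over all genes. Among the 4 were Rac2 (change 2.42, SE 0.67), a leukocyte GTPase, the myeloid kinase Fgr (3.81, SE 0.99), and Arrb2 (1.08, SE 0.26), an arrestin that ends receptor signalling. Rac2 was at 3.06, 2.91 and 2.78 FPKM in WT day 0 and at 35.4, 9.40 and 5.46 in WT day 7, highest again in replicate 1. No gene of this list was called in the other 4 contrasts. Of 14 cytokines that can induce chemokines, 8 were tested and 1 was called higher in WT, against 6.04% of all genes. It was Il1a (change 3.84, SE 1.04, edgeR adjusted p = 0.0388), which went from 0.544, 0.958 and 0.499 to 26.2, 2.44 and 1.82 FPKM. Il1b was at 12.1, 10.2 and 8.99 FPKM in WT day 0 and at 680.3, 21.5 and 12.04 in WT day 7, the same library leading by far. Of 7 chemokine relatives and processing genes, 6 were tested and none was called. Pf4, a platelet and macrophage chemokine, was at 317 FPKM and Ccrl2, a non-signalling receptor, at 60.4 in WT day 7 replicate 1, against at most 48.9 and 4.22 elsewhere.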

How the data were processed

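RNA sequencing of poly(A) RNA from mouse dermis was deposited as one table of 55401 genes and 12 samples. Per the labels' protocols, libraries were stranded and carried molecular identifiers. Per the submitters' processing notes, cutadapt 1.9, HISAT2 2.0.4, UMI-tools, StringTie 1.3.4d, DESeq2 and edgeR were used with the GRCm38 build, without stated roles, and the strand setting of counting was not given in the sources used here. The deposited counts are whole numbers that pile up at multiples of 4, so 1 count may not stand for 1 fragment. The deposited FPKM values were computed by the authors, with 0.0001 in place of 0, read here as 0. Counting floors (3 counts, between 0.0390 and 0.0621 CPM) cover counting error only.

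Symbols and positions came from GENCODE M21 (GRCm38). The 14313 genes whose FPKM averaged 1 or more were tested on counts with edgeR 4.0.16 in R 4.3.3 (TMM, glmQLFit and glmQLFTest, two-sided, 12 samples in 1 fit, group means, no covariate), adjusted by Benjamini-Hochberg over all of them. Alternatives were DESeq2 1.42.0, limma 3.58.1 on log2(FPKM + 1) and log2(FPKM + 0.1), other scalings and filters, counts divided by 4, only the groups compared, a replicate block and each replicate left out. Simulated counts for WT day 7 against day 0 had 200 of 14313 genes changed by 2 on the log2 scale. On these, edgeR recovered 100% with 4.31% false calls, limma 99.5% with 6.57% and DESeq2 100% with 10.7%. The simulation gave every gene the same spread and held no library that stood apart. Its rates therefore do not carry over to the calls reported here.

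Genes described with every replicate were those called in any contrast, the 4 largest rises and falls without overlap in each 2-group contrast, and the 8 with the highest mean FPKM, and others were added after their values were seen. The family, its lists and the markers were chosen with earlier results of these data known. Marker lists covered neutrophils, monocytes and macrophages, Langerhans and dendritic cells, T cells, B cells, mast cells, fibroblasts, endothelium, lymphatic endothelium, keratinocytes, hair follicle, muscle, adipocytes and erythrocytes. Single results on a member and on a signalling gene are not reported here.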

Additional observations from a re-analysis of the deposited data

Results flagged for a closer look

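Ccr4 had day 7 estimates of opposite sign in the 2 genotypes, and neither was called (-1.46 in WT, edgeR adjusted p = 0.0722, and 1.24 in Cthrc1-/-, adjusted p = 0.215). Each WT day 7 library was lower than each WT day 0 library for this skin-homing T cell receptor, while 3 of 3 Cthrc1-/- day 7 libraries were at or above the highest Cthrc1-/- day 0 library. The interaction of genotype and day was 2.70 on the log2 scale (SE 0.69), with an edgeR adjusted p of 0.193, so it did not pass the threshold, and DESeq2 called it.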

How the results depend on the processing

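No called gene changed direction under any alternative run. Counts of chemokine and receptor genes called moved with the tool and with single libraries. For WT day 7 against day 0 the count of 6 became 13 with DESeq2, 3 with no filter, 0 with only the WT groups fitted and 11 with both libraries that stood apart left out, and ran from 0 to 13 with 1 replicate left out. Limma gave 5 at either pseudocount, but on log2(FPKM + 1) none of the 3 rises was called, and DESeq2 gave no p for Cxcl3 and Cxcr2. For Cthrc1-/- day 7 against day 0 the count of 1 became 4 with DESeq2, 3 with limma at either pseudocount, 3 with total-count scaling, 0 with no filter and 7 without both libraries, and ran from 0 to 1 with 1 replicate left out. For genotypes on day 0 the count of 1 became 4 with DESeq2, 2 with limma on log2(FPKM + 0.1), 0 with only the groups compared and 5 without both libraries, and ran from 0 to 2 with 1 replicate left out. For genotypes on day 7 and for the interaction the count of 0 became 1 and 2 with DESeq2 and stayed at 0 under the other alternatives run. Some of these settings also bring fewer samples or more genes tested. The cause of these moves was not tested. Without both libraries, the calls named as WT or Cthrc1-/- changes rest on 2 samples in an arm.

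Replicate numbers 1 to 3 recur in all groups. With the replicate block, the WT day 7 count was 0, with adjusted p between 0.0559 and 0.0950 for the 6 genes, while the Cthrc1-/- day 7 and day 0 genotype counts stayed at 1. Deviations of same-numbered WT libraries correlated across genes at 0.087, 0.023 and 0.074, each best with its own number. Those of different-numbered WT libraries ran from -0.083 to 0.016. In the other comparisons the libraries did not all match best with their own number. The labels do not say what a shared number stands for, and that was not tested. Total-count scaling moved the median change of all genes by 0.20 in WT and 0.16 in Cthrc1-/-, and turned the WT calls over all genes from 864 higher and 1016 lower into 1669 higher and 543 lower. Over all genes, the day 0 genotype count of 827 became 19 with only the day 0 groups and 2787 with DESeq2. With DESeq2, the Cthrc1-/- day 7 count of 209 became 1409 and the WT day 7 count of 1880 became 3551. The day 7 genotype count of 3 became 62 with DESeq2, and the interaction count of 2 became 681. With both libraries that stood apart left out, counts over all genes were 2754 for WT day 7, 1651 for Cthrc1-/- day 7 and 976 for genotypes on day 0. Counts of a few reads, as for Cxcl3 on day 0, limit the size of its change.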

Other observations

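Langerhans cell RNA was read beside the chemokines that skin epithelium makes. Cd207, the langerin gene that defines these cells, was at 20.7, 23.0 and 24.8 FPKM in WT day 0 and at 1.35, 10.4 and 9.55 in WT day 7. In Cthrc1-/- it was at 35.8, 16.3 and 2.92 on day 0 and at 6.96, 8.96 and 10.3 on day 7. The lowest value was in WT day 7 replicate 1, where Ccl27a and Ccl27b were also lowest.

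Mast cell markers summed to between 45.8 and 56.6 FPKM in WT day 0, between 78.3 and 122 in WT day 7, between 20.04 and 56.5 in Cthrc1-/- day 0 and between 57.4 and 138 in Cthrc1-/- day 7, so day 7 lay above day 0 without overlap in both genotypes. Over the 12 libraries, skeletal muscle markers summed to between 70.9 and 1165 FPKM, adipocyte markers to between 43.1 and 152 and erythrocyte markers to between 124 and 1569.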
